A study of Mus musculus with 2 samples.

Results

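The genes described here are antisense noncoding RNAs, transcribed from the strand opposite a protein-coding gene, that were detected in adult mouse cerebral cortex. A gene was counted where its annotated transcripts included at least 1 of the type antisense and none of the types protein_coding or lincRNA, and where its level reached 1 TPM (a length-corrected share of the RNA in a library) in both libraries. Kcnq1ot1 was left out. Of 3066 annotated genes that met the rule on types, 223 were detected, out of 55536 genes in the deposited table. The genes were chosen by their TPM in these same libraries, so their levels are given as a description and were not tested.

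Total RNA came from the left cerebral cortex of 2 male mice of the strain given as 5xFAD/CAST, aged 8 to 10 months, and 300 ng of RNA entered each library. The 5xFAD line carries human amyloid precursor protein and presenilin transgenes with mutations of familial Alzheimer disease, driven by the neuronal Thy1 promoter. CAST is a wild-derived mouse strain. Both animals belonged to this single group, and no animal without the transgenes was analysed here, so no level below can be ascribed to the transgenes or to the cross. Replicates 1 and 2 are the labels' biological replicates with separate tissue samples, and every ratio between them is replicate 1 over replicate 2.

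Antisense RNAs can start beside the promoter of a coding gene and run away from it, run into its 3′ end, or lie wholly within one of its introns or exons. Some are known to act on the gene they overlap, as Airn does on Igf2r and the antisense extension of Snhg14 does on Ube3a in mouse neurons. Others work elsewhere in the cell or host small RNAs in their introns, and for most no role is known. In bulk tissue, fewer cells that make an RNA and less of it per cell cannot be told apart.

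The stretches of genome where these RNAs begin are shown for 5 of them, because the arrangement of the starts is what the pairs below are sorted by. The sequences are those of the RefSeq promoter table for GRCm38.p6, read 5′ to 3′ on the strand of the antisense RNA, and the capitals mark CG dinucleotides. In 2 divergent pairs the table covered the whole stretch between the start of the antisense RNA and that of its coding gene. Gm4285 and Tpt1, which encodes a translationally controlled tumour protein, are separated by the 128 bases of chr14:75844965-75845092 on the minus strand. Gm28424 and U2surp, which encodes a splicing factor, are separated by the 154 bases of chr9:95511997-95512150 on the plus strand. These stretches held 16 and 20 CG dinucleotides.
Gm4285 to Tpt1: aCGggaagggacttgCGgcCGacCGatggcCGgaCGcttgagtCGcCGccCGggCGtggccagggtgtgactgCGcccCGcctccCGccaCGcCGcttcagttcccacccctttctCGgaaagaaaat
Gm28424 to U2surp: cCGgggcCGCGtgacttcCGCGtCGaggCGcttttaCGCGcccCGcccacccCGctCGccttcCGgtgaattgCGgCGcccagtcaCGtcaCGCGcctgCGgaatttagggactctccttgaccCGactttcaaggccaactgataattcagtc

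The next 3 are the windows, of 250 bases before to 50 after the RefSeq start, of the most abundant antisense RNAs whose window lay within 100 bases of the annotated start and held no exon base of a coding gene. Gm26782, which overlaps the head of Tep1, a telomerase-associated protein gene, has its window at chr14:50870046-50870345 on the plus strand. A330009N23Rik, which overlaps the head of Grasp, a scaffold protein gene, has its window at chr15:101225137-101225436 on the minus strand. Trmt61b, which carries the name of a methyltransferase gene but is annotated as noncoding in mouse here and in RefSeq, has its window at chr17:71598712-71599011 on the minus strand and runs into the tail of Spdya, a cell cycle regulator gene.
Gm26782: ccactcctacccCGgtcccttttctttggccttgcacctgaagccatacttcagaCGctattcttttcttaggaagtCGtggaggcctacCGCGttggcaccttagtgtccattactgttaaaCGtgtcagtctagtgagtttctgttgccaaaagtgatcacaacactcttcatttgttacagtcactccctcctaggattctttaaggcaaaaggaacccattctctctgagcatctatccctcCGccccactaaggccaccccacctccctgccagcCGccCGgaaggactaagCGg
A330009N23Rik: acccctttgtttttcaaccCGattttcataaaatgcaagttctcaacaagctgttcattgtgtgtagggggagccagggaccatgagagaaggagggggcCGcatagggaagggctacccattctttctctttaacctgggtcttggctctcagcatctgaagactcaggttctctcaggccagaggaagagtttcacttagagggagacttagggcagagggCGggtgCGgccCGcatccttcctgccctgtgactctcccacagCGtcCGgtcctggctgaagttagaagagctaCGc
Trmt61b: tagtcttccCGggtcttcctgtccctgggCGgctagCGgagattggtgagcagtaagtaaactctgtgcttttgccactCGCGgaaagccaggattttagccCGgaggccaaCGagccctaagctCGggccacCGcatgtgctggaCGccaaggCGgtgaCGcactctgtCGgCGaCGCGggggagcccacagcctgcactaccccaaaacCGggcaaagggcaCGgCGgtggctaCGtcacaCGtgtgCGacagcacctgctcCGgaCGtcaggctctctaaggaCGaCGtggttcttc

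These windows held 10, 8 and 26 CG dinucleotides in the order printed. Over all 32851 windows of the table the median was 7, and 94.6% of windows held at least 1. At least 10 were found in 43.5% of windows, at least 8 in 48.6% and at least 26 in 16.9%. Only 88 of the 223 detected antisense RNAs, 39.5%, had a window within 500 bases of their annotated start. That is under the 80% required, so a comparison of base composition over the set is void.

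Whether an antisense level holds reads of the coding strand matters for every pair. Per the labels' protocols a directional kit was used, while the strand setting of the counting is not stated there or in the files. It was therefore checked on 26 antisense genes, detected or not, whose exons lie to at least 80% within opposite-strand coding exons and whose paired coding gene averaged between 51.1 and 574 TPM. Of these, 16 had 0 reads in both libraries in the RSEM-format and in the kallisto-format tables, and 23 stayed under 1 TPM in both libraries. Gm28221, for instance, lies to 100% within exons of Ncald, at 183 TPM, and Gm15976 to 83.0% within exons of Atp5o, at 177 TPM, and both had 0 reads. Both kinds of table hold estimated counts, in which a read shared by overlapping genes is divided between them. A gene nested in abundant coding exons can then be given 0 reads whatever the strand setting, so the check does not settle that setting. Only Gm11175 and Chn1os1 of the 26 were among the 223.

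Gm11175 is the abundant one. It measured 16.04 TPM in replicate 1 and 15.94 TPM in replicate 2, against 97.9 and 93.4 TPM for Jund, which encodes a subunit of the AP-1 transcription factor and has a single exon. The annotation of mm10 places Gm11175 at chr8:70699162-70700080 on the minus strand in 2 exons, and all 877 exon bases lie within the Jund coding sequence at chr8:70699058-70700080. The annotated start of Gm11175 is thus the last base before the Jund stop codon. Gm11175 had 138 and 125 reads, against 3832 and 3267 for Jund. Its reads cannot be told apart from Jund reads assigned to the wrong strand, so its level may not be that of an antisense RNA. The 2 exons of Gm11175 are separated by 42 bases, chr8:70699496-70699537, shown because most introns begin with GT and end with AG. Read from the Jund transcript of the annotation and turned to the strand of Gm11175, with the first and last 2 bases in capitals, the stretch begins with GG and ends with AG.
Gm11175 between its exons: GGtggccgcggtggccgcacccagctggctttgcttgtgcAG

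Detection was less common than for coding genes. The 223 were 7.27% of the antisense genes, while 59.4% of 22028 protein-coding genes and 4.66% of 5854 long intergenic genes reached 1 TPM in both libraries. A further 29 antisense genes reached it in replicate 1 only and 43 in replicate 2 only, and 1511 had no read in either library. The detected antisense RNAs held 0.136% of the reads assigned to genes in replicate 1 and 0.146% in replicate 2. Just inside the threshold lay 1700008J07Rik at 1.00 and 1.46 TPM, Gm34939 at 1.00 and 1.61 TPM and 9330171B17Rik at 1.03 and 1.02 TPM. Just outside lay Gm49086 at 0.99 and 1.05 TPM, Gm15156 at 2.02 and 0.99 TPM and Gm15867 at 0.97 and 1.09 TPM. The genes on either side of the line were alike in level, each with under 80 reads per library.

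Most of the detected RNAs were scarce. Their median level was 1.97 TPM in replicate 1 and 2.34 TPM in replicate 2, with an SD of 0.26 between these 2 medians. Taken over the mean TPM of the 2 animals, the median was 2.09 TPM. It was 15.0 TPM for detected protein-coding genes and 2.70 TPM for detected long intergenic genes. By mean level 20 exceeded 10 TPM, 19 lay between 5 and 10 TPM and 104 lay under 2 TPM. The median read support was 58 reads in replicate 1 and 61 in replicate 2. TPM were higher in replicate 2 for 70.0% of the antisense RNAs and for 77.3% of detected coding genes, so the difference in the medians was shared with the coding genes. Across the 223, log2(TPM + 0.1) in replicate 1 correlated with that in replicate 2 at Pearson 0.95 and Spearman 0.86, across genes that share the same 2 libraries.

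Snhg14, the host of the brain small nucleolar RNAs of the Prader-Willi and Angelman region, stood far above the rest. It measured 524 TPM in replicate 1 and 649 TPM in replicate 2, 586 ± 88 (SD, n = 2), which was 13.5 times the second most abundant. Ube3a, the ubiquitin ligase gene at its tail, measured 54.3 and 49.5 TPM. Both animals thus had Snhg14 above Ube3a, by 3.27 and 3.71 on the log2(TPM + 0.1) scale. In reads, Snhg14 had 13111 and 14511 against 6012 and 5628 for Ube3a. Only 1803 of the 26093 exonic bases of Snhg14 are complementary to Ube3a exons. Its level is therefore that of the whole gene and not of the RNA opposite Ube3a. Snhg14 is annotated on chromosome 7 from 59307924 to 59975759 on the minus strand, with 65 separate exonic blocks, 15 transcripts and 208 small nucleolar RNA genes within its span. It held 39.5% and 41.9% of the summed TPM of the 223, and 28.3% and 30.8% of their reads.

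The level of Snhg14 was unevenly spread over its transcripts and depended on the method of counting. A transcript of 670 bases took 49.8% of the gene in replicate 1 and 48.2% in replicate 2 in the deposited percentages, and the next, of 687 bases, took 16.3% and 17.0%. In the kallisto-format tables Snhg14 reached 1004 and 1047 TPM. There, a transcript of 456 bases measured 328 and 322 TPM that was listed at 0 in both RSEM-format libraries. Part of Snhg14 is thus assigned differently by the methods, while it ranked first in both.

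Tug1, a long noncoding RNA named as a taurine up-regulated gene, came second with 42.2 TPM in replicate 1 and 44.6 TPM in replicate 2. It starts head to head with Morc2a, a chromatin regulator gene, at 13.6 and 18 TPM, and so exceeded its partner in both animals. Zfas1, which hosts Snord12, measured 22.8 and 23.6 TPM against 27.4 and 33.8 TPM for Znfx1, a zinc finger helicase gene, and lay a little below it in both. 4933431E20Rik measured 23.9 and 22.1 TPM while Eps8l3, the epidermal growth factor pathway gene at its tail, was listed at 0 in both libraries. B230334C09Rik, a single block of 8927 exonic bases on chromosome 3, measured 18.8 and 21.8 TPM against 12.95 and 11.01 TPM for Lrrc40.

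Several of the abundant antisense RNAs lie beside transcription factor genes. 2810468N07Rik, head to head with the glial factor gene Sox8, measured 16.6 and 16.3 TPM against 22.9 and 24.8 TPM for Sox8. A830082K12Rik measured 12.2 and 15.3 TPM against 43.2 and 42.7 TPM for Nr2f1, a gene that patterns cortical areas. Both lay below their coding gene in both animals. The reverse was seen for Gm13205, within the zinc finger gene Casz1, at 8.49 and 13.0 TPM against 0.67 and 0.58 TPM for Casz1.

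The other RNAs among the 20 most abundant lay beside genes of varied function. Rab10os measured 17.1 and 20.7 TPM against 53.9 and 55.4 TPM for the membrane traffic gene Rab10, and Gm13375 measured 11.6 and 12.6 TPM against 85.3 and 95.7 TPM for the divergent Arhgap21. Gm2415 measured 15.2 and 16.9 TPM against 2.52 and 2.75 TPM for the integrin gene Itga9, and E130307A14Rik 14.04 and 16.63 TPM against 0.27 and 0.50 TPM for the signalling adaptor gene Traf3ip2. Rab10 and Arhgap21 thus lay above their antisense RNAs, and Itga9 and Traf3ip2 below. Gm2415 has no exonic base complementary to Itga9 exons. Its start lies 319765 bases from that of Itga9 and nearer to that of another opposite-strand coding gene. Gm26782 measured 14.6 and 16.1 TPM against 3.48 and 2.86 TPM for Tep1, and A830036E02Rik 12.3 and 17.8 TPM against 4.11 and 3.76 TPM for the keratin gene Krt12. A930005H10Rik, at 14.04 and 13.15 TPM, lay above Dph5 at 7.11 and 6.08 TPM, and AC109619.1, at 12.02 and 14.35 TPM, lay above Macrod1 at 9.05 and 8.63 TPM. A330009N23Rik, at 11.5 and 10.3 TPM, lay below Grasp at 23.6 and 24.7 TPM.

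**Figure D1:**
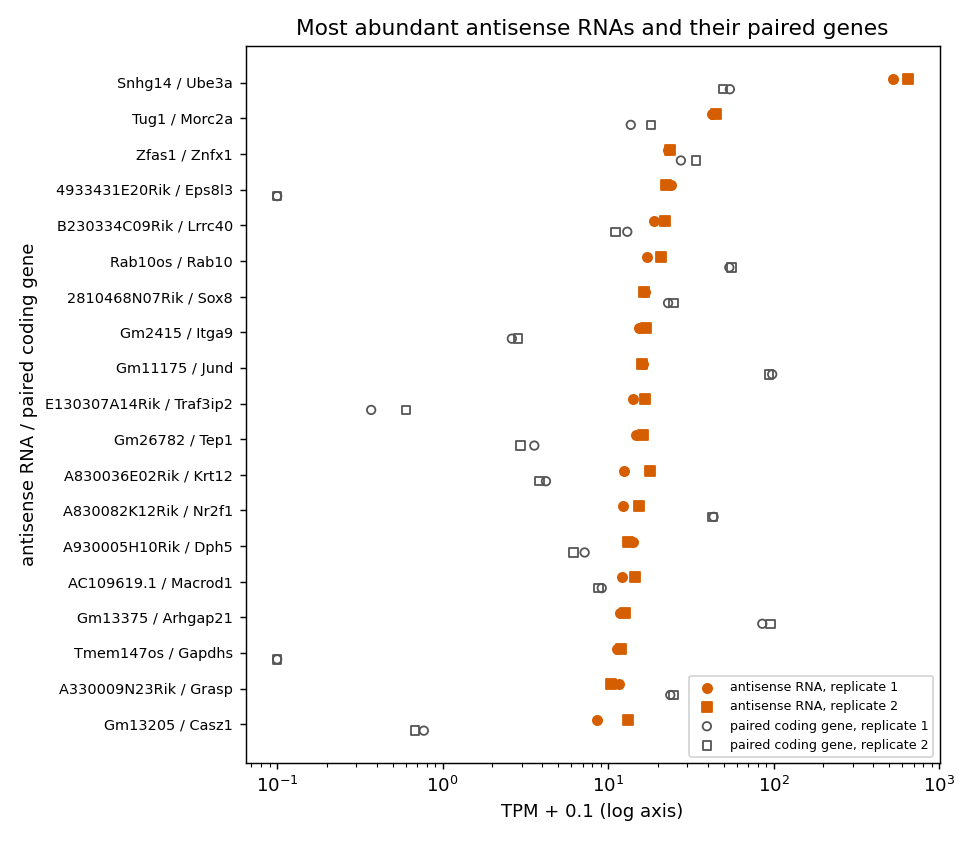
TPM + 0.1 on a log axis of 19 of the 20 most abundant antisense RNAs (filled) and their paired coding genes (open), with circles for replicate 1 and squares for replicate 2. Snhg14 stands alone at 524 and 649 TPM, and the coding genes range from 0 to 97.9 TPM.

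Pairs were set by position, as the opposite-strand coding gene with the longest overlap or, without overlap, the nearest within 5000 bases. An overlapping partner was found for 209 antisense RNAs and a neighbouring one for 11, while Gm14286, Gm10593 and Gm3892 had none. Over the 220 pairs the median gap, antisense RNA minus coding gene on the log2(TPM + 0.1) scale, was −2.52 in replicate 1 and −2.54 in replicate 2. The antisense RNA lay below its partner in both animals in 165 pairs, above it in both in 50, and changed sides between the animals in 5. Since the antisense RNAs were chosen at 1 TPM or more and the partners by position alone, these counts describe the detected pairs and not antisense genes at large.

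Across pairs the levels of antisense RNA and partner were at most weakly correlated. Pearson's correlation of log2(mean TPM + 0.1) was −0.062 and Spearman's −0.074 over 220 pairs, which share 2 libraries and, on the antisense side, the lower limit of 1 TPM. Within the head-to-head pairs Pearson's correlation was −0.050 (89 pairs), within the tail-to-tail pairs −0.076 (55 pairs), and for antisense RNAs inside the coding gene 0.12 (53 pairs). Spearman's correlation was −0.039, −0.17 and 0.090 in the same order.

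**Figure D2:**
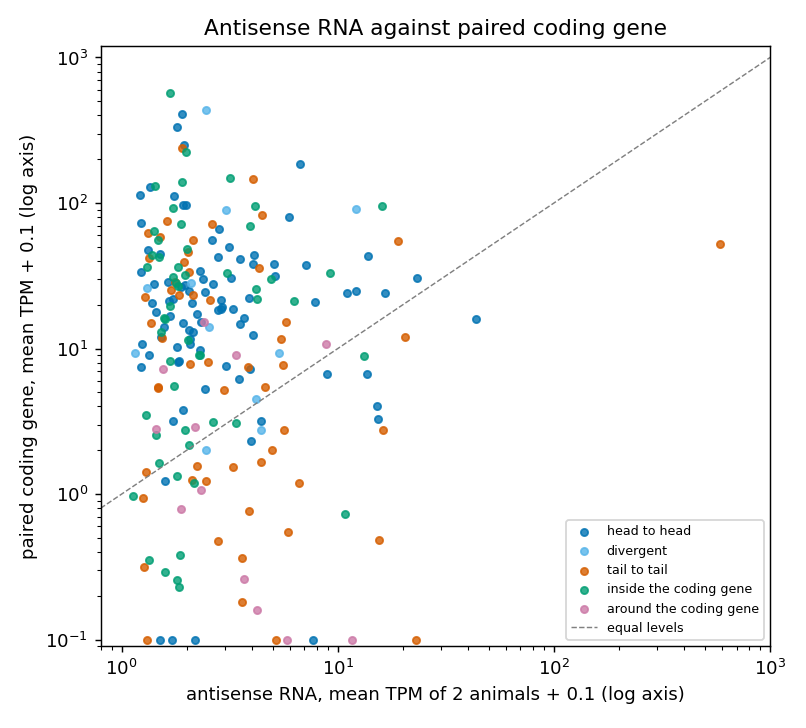
Mean TPM + 0.1 of the antisense RNA (horizontal, log axis) and of its paired coding gene (vertical, log axis) for 220 pairs, coloured by arrangement, with the dashed line at equal levels. In 165 pairs the coding gene lies above the antisense RNA in both animals.

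The arrangement of the pair, as set by the longest overlap, went with the gap. Some RNAs with overlapping tails or around a coding gene start nearer to another opposite-strand coding gene. Among them are 4933431E20Rik, Gm2415, E130307A14Rik and Tmem147os. The gap by arrangement was not computed with the gene of the nearest start, so its dependence on the pairing rule was not tested. In 89 pairs the heads overlapped, in 11 the RNAs diverged without overlap, in 55 the tails overlapped, in 53 the antisense RNA lay inside the coding gene and in 12 the coding gene lay inside the antisense RNA. The median gap was −2.88 ± 0.11 for overlapping heads and −2.89 ± 0.04 for divergent pairs (SD of the 2 animals' medians). It was −2.62 ± 0.01 for antisense RNAs inside the coding gene, −1.13 ± 0.19 for overlapping tails and 0.43 ± 0.32 for antisense RNAs around the coding gene. The antisense RNA was above its partner in both animals in 12 of 89 pairs with overlapping heads, 1 of 11 divergent pairs, 22 of 55 with overlapping tails, 9 of 53 inside and 6 of 12 around.

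The partners themselves differed in level between arrangements. The median partner level was 20.5 TPM for overlapping heads, 13.9 TPM for divergent pairs, 21.2 TPM for inside, 7.70 TPM for overlapping tails and 1.83 TPM for around, while the median antisense level ran only from 1.75 to 2.79 TPM. The antisense levels were held to 1 TPM or more by the rule, and the partner levels were not. In 63 pairs the annotated starts lay within 1000 bases of each other, and 62 of these partners were detected, with a median gap of −2.86 ± 0.09. In the 157 pairs with starts farther apart, 126 partners were detected and the median gap was −2.07 ± 0.20.

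**Figure D3:**
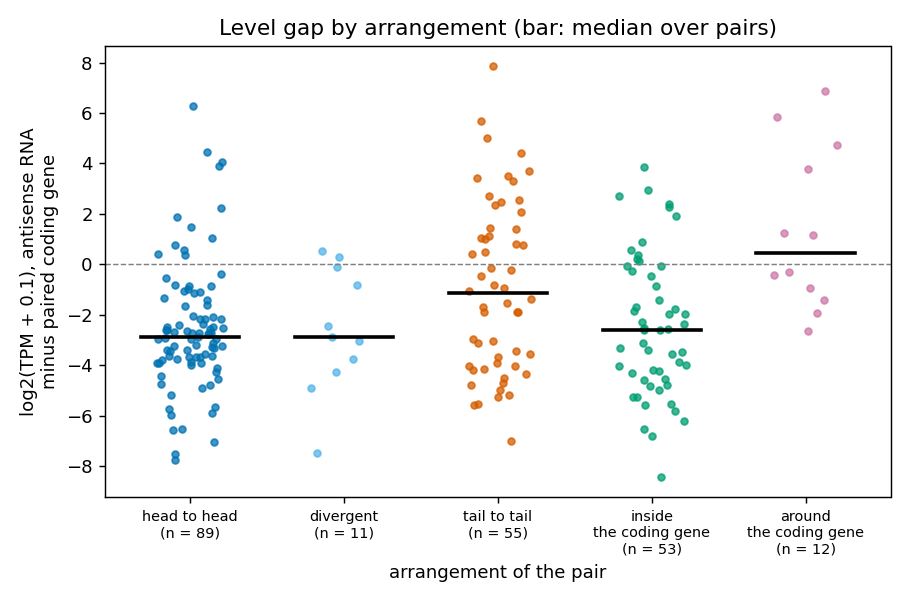
Mean over the 2 animals of the log2(TPM + 0.1) gap, antisense RNA minus paired coding gene, for each pair by arrangement, with bars at the median given in the text. The bar is at −2.88 for overlapping heads, −1.13 for overlapping tails and 0.43 for antisense RNAs around the coding gene.

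Arrangement also went with detection. Antisense genes with overlapping heads were detected in 13.7% of 648 cases, with overlapping tails in 12.4% of 442, around a coding gene in 11.2% of 107 and divergent in 10.8% of 102. Those inside a coding gene were detected in 3.23% of 1639 cases, and none of 31 convergent neighbours was. Among the detected, 85.5% of partners were themselves detected, with a median of 15.8 TPM, against 76.4% and 9.50 TPM for the 2749 paired antisense genes that were not. By arrangement, the median partner level among the detected and among the others was 20.5 and 6.82 TPM for overlapping heads, 13.9 and 4.31 TPM for divergent pairs, 21.2 and 12.3 TPM for inside, and 1.83 and 0.395 TPM for around. For overlapping tails the order was the other way, with 7.70 TPM among the detected and 9.21 TPM among the others. The detected antisense genes also had more exonic bases per gene, with a median of 1990 over all 223, against 918 for the paired genes not detected.

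**Figure D4:**
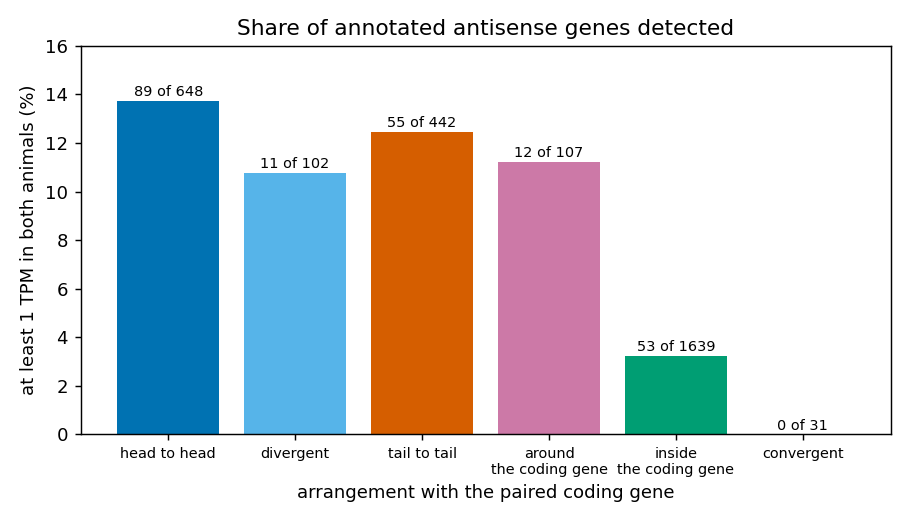
Percent of annotated antisense genes that reached 1 TPM in both animals, by arrangement with the paired coding gene, with the counts above the bars. Genes inside a coding gene were detected in 3.23% of cases and those with overlapping heads in 13.7%.

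The lowest gaps are given for 5 pairs, in which the partner is necessarily abundant, since every antisense RNA was chosen at 1 TPM or more. Chn1os1, inside the gene of the Rac-regulating protein chimaerin, measured 1.72 TPM in replicate 1 and 1.42 TPM in replicate 2, against 549 and 599 TPM for Chn1, a gap of −8.43 ± 0.27. Of its 636 exonic bases 533 are complementary to Chn1 exons, and it had 23 and 17 reads. So few reads cannot be told apart from Chn1 reads assigned to the wrong strand. A230083G16Rik at 1.53 and 2.06 TPM lay beside Ptms, parathymosin, at 398 and 422 TPM. 1700101I11Rik at 1.70 and 1.71 TPM lay beside the autophagy gene Gabarapl1 at 321 and 348 TPM. Gm4285 measured 2.35 TPM in both animals beside Tpt1 at 434 and 436 TPM, across the 128 bases printed above. 9430041J12Rik at 1.39 and 2.29 TPM lay beside the chloride channel gene Ttyh1 at 242 and 260 TPM. In these 5 pairs the gap was −7.05 or lower on the log2(TPM + 0.1) scale.

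At the high end, 5 of the 6 widest gaps were to partners listed at 0 in both libraries, for which no fold is given. Besides 4933431E20Rik with Eps8l3, these were Tmem147os at 11.3 and 11.9 TPM with Gapdhs, a sperm glycolysis gene, and Sp3os at 7.31 and 7.90 TPM with Gm11084. The others were Gm49685 at 4.89 and 6.58 TPM with Acot10, and Gm26982 at 4.99 and 5.12 TPM with the ghrelin gene Ghrl. E130307A14Rik, described above, was the sixth, at 5.03 ± 0.32 above Traf3ip2. Gm49685 shares 198 of its 2423 exonic bases with Cdh12, a gene on its own strand, and reads there can be split between them. Gm26982 overlaps Ghrl by only 3 bases and starts 3902 bases after Tatdn2, a coding gene on its own strand. Reads running past the end of Tatdn2 cannot be told apart from Gm26982. The start of 4933431E20Rik lies 18984 bases from that of Eps8l3, and the start of E130307A14Rik 119073 bases from that of Traf3ip2. Both RNAs start nearer to another opposite-strand coding gene, whose level is not given here. In all, 9 of the 220 partners were listed at 0 in both libraries.

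For some of these the gene in the RNA's own name is another than the one paired by position. A coding gene is named in the symbol of 29 of the 223, and in 7 it differed from the pair by position. Tmem147os lay below Tmem147, a membrane protein gene at 48.2 and 50.3 TPM, and Sp3os below the transcription factor gene Sp3 at 24.5 and 25.5 TPM, so neither exceeded the gene it is named for. Against the named genes, 26 of the 29 lay below in both animals and 3 above, with a median gap of −2.04. The 3 above were Brip1os, Ttc39aos1 and Prox2os, named here after their values were seen.

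Antisense RNAs of developmental and imprinted genes were examined as lists. Of 19 genes with the required transcript types on a list of opposite-strand RNAs of transcription factor and developmental genes, 5 were detected, where 7.27% of all such antisense genes were. Dlx6os1, known as Evf2 and made in the interneuron lineage, measured 7.97 TPM in replicate 1 and 9.48 TPM in replicate 2, against 11.6 and 9.83 TPM for Dlx6, which it surrounds. Dlx1as measured 5.12 and 5.82 TPM against 8.95 and 8.85 TPM for Dlx1, the interneuron factor gene it is named for, and against 6.74 and 8.52 TPM for Metap1d, its pair by position. Both interneuron RNAs were close to their factor gene in level. Zfhx2os measured 5.47 and 5.87 TPM against 13.3 and 17.0 TPM for Zfhx2, and Six3os1 measured 2.22 and 2.45 TPM against 5.31 and 4.96 TPM for the forebrain factor gene Six3. Zeb2os, within the gene of the neural crest and interneuron factor Zeb2, measured 3.23 and 4.40 TPM against 68.8 and 70.8 TPM, the widest gap of the 5. Emx2os, beside a cortical patterning gene, stayed below the threshold at 0.56 and 0.46 TPM, and Tbx3os1 passed it only in replicate 2, at 0.78 and 1.14 TPM.

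Of 4 antisense genes of imprinted loci with the required types, 2 were detected, where 7.27% of all such antisense genes were. So short a list, chosen with earlier results of these data known, allows no comparison with that share. Besides Snhg14, Airn measured 1.70 TPM in replicate 1 and 2.24 TPM in replicate 2, against 9.57 and 11.7 TPM for Igf2r, the receptor gene it silences on the paternal chromosome in most mouse tissues. Airn rested on 35 and 52 reads. Nespas, at 0.07 and 0.23 TPM, and Tsix, at 0.13 and 0.04 TPM, were not detected. The deposited tables do not separate the alleles, so no statement on imprinting follows. Of 8 opposite-strand RNAs of neuronal and other genes, Kcnmb4os2 alone was detected, a count too small to set against the share of 7.27%. Kcnmb4os2 measured 5.85 and 8.22 TPM against 37.2 and 37.1 TPM for Kcnmb4, a regulatory subunit of a calcium-activated potassium channel.

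A few further RNAs were chosen after their values were seen, for the gene they lie in. Gm16536, in the gene of the beta-secretase Bace1 that cleaves the amyloid precursor protein, measured 8.10 TPM in replicate 1 and 10.2 TPM in replicate 2, against 31.1 and 34.5 TPM for Bace1. It is a single block of 1589 bases at chr9:45856769-45858357 on the minus strand, of which 135 are complementary to Bace1 exons. Gt(ROSA)26Sor, the RNA of the locus widely used for transgene insertion, measured 5.48 and 5.26 TPM against 10.1 and 12.8 TPM for Thumpd3. Thumpd3 is its pair by position, at its tail, while the RNA starts nearer to another opposite-strand coding gene. Pcsk2os1 measured 1.71 and 1.60 TPM against 103 and 119 TPM for the prohormone convertase gene Pcsk2. Each of these 3 RNAs lay below its pair by position in both animals.

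Small RNA genes lie within 10 of the 223. Snhg14 has 208 small nucleolar RNA genes, and Zfas1 and 1810032O08Rik have 3 each, which are Snord1a, Snord1b and Snord1c in 1810032O08Rik. Rab26os holds Snord60, Snhg9 holds Snora78 and Gm17494 holds Mir760. Apart from Snhg14 and Zfas1, none of these hosts exceeded 10 TPM.

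Between the animals, none of the antisense RNAs was called different. A gene was called where rounded expected counts, with 0.5 added and scaled by TMM effective library sizes, differed at least 2-fold, a library had 10 or more reads, and equal levels lay outside a strict Clopper-Pearson interval, one that leaves out 0.1%, around the share of reads in replicate 1. Of 219 antisense RNAs with enough reads, 0 were called in either direction. Over all 19484 genes tested, 0.647% were called higher in replicate 1 and 0.57% higher in replicate 2, together 1.22%, and 0.359% of the genes at 1 TPM or more in both libraries. At that background few calls among 219 genes would be counted, so the absence of calls says little about antisense RNAs as a group. With the 95% interval in place of the strict one the count was also 0. Without the fold requirement the 95% interval excluded equal levels for 22 of the 219, or 10.0%, and for 26.2% of all genes tested, which hold more reads per gene.

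The log2 ratios ran from −1.11 to 0.99, with a median of −0.034 and a median size of 0.21, and 195 of 223 were under 0.5 in size. Over all genes tested the median size was 0.13, and for the 64 antisense RNAs with at least 100 reads in both libraries it was also 0.13. The lowest was Gm45533, divergent from the serotonin receptor gene Htr6, with 4 reads in replicate 1 and 9 in replicate 2, −1.11 with a 95% interval of −3.36 to 0.64. The highest was Junos, head to head with the AP-1 gene Jun, with 27 reads in replicate 1 and 13 in replicate 2, 0.99 with an interval of 0.02 to 2.10. Both extremes rest on few reads.

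With no requirement on the fold, equal levels lay outside the strict interval for 3 of the 219 antisense RNAs, each less than 2-fold apart. At any fold this held for 8.76% of all genes tested and for 10.2% of those at 1 TPM or more in both libraries. 4932441J04Rik, beside the protocadherin gene Pcdh7, had 265 reads in replicate 1 and 176 in replicate 2, 0.55 with a 95% interval of 0.28 to 0.84. Tomm6os had 83 and 141 reads, −0.80 with an interval of −1.21 to −0.40. Snhg14 had 13111 and 14511 reads, −0.18 with an interval of −0.21 to −0.15. These intervals hold counting error alone, as the reads carry no molecular identifiers and may repeat a molecule, and 2 animals of 1 group allow no test of a condition.

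**Figure D5:**
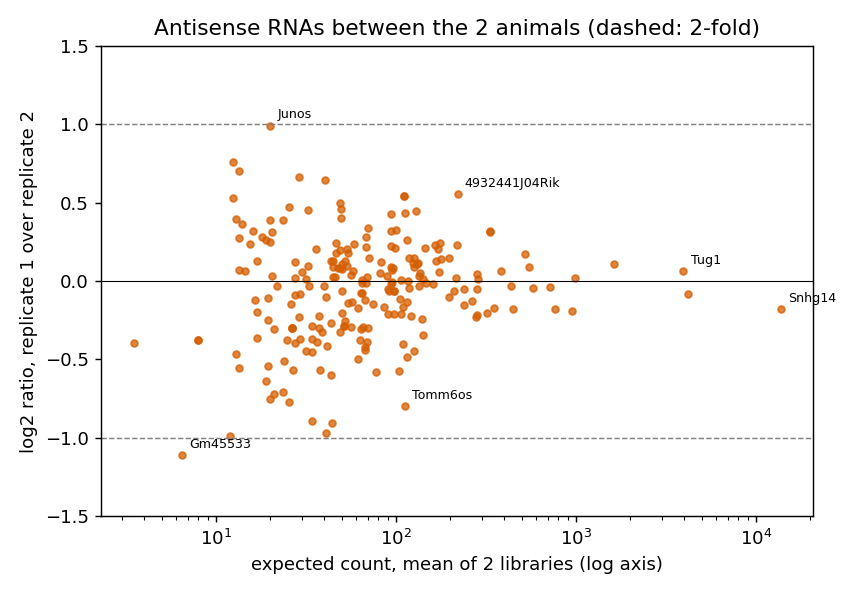
Log2 ratio of replicate 1 over replicate 2 (vertical) against the mean expected count of the 2 libraries (log axis) for the 223 antisense RNAs, with dashed lines at 2-fold. The ratios narrow towards high counts, and 1 RNA, Gm45533, lies beyond 2-fold.

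The shifts of antisense RNAs and of their partners between the animals were at most weakly correlated, which is no finding at so few reads per gene. Over 200 pairs with at least 10 reads in each library for both genes, the log2 ratios correlated at Pearson 0.052 and Spearman 0.061, across pairs that share the 2 libraries. With at least 50 reads in each library the Pearson value was −0.13 over 105 pairs. Of the 218 distinct partners, 2 were called, both higher in replicate 1, where 1.22% of all genes tested were called in either direction. They were the prostacyclin synthase gene Ptgis, with 67 and 32 reads beside Gm14291 with 29 and 39, and the histone gene Hist2h2aa1, with 136 and 32 reads beside Gm20633 with 109 and 79.

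The libraries held 33925221 and 32380330 expected counts on genes in replicates 1 and 2. Cortical neuron and glia markers were detected in both libraries for 12 of 12 genes, with summed levels of 2111 and 2154 TPM. Of 10 choroid plexus markers, 10 were called higher in replicate 1, with summed levels of 563 and 110 TPM, and 4 of 10 immediate early genes were called higher in replicate 2, with summed levels of 119 and 246 TPM. Of 10 thalamus and hypothalamus markers, 4 were called higher in replicate 1, with 87.2 and 60.6 TPM. Their part in the ratios of the antisense RNAs was not tested.

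The annotated structure limits some values. Most of the 223 had an antisense transcript as their most abundant one, 213 in all, and 77 had a single transcript, while 35 were a single exonic block. Exons of 23 overlapped exons of another gene on their own strand, among them Zfhx2os, which shares 2807 of its 4453 exonic bases with Gm20687, and Dlx6os1 and Tmem147os, each of which overlaps a second gene of the same symbol. Reads there can be split between the genes. Gm10593 and Gm3892 shared all of their 50-base words and had the same TPM, 1.55 and 1.16, so they cannot be told apart. A start within 1000 bases after the end of a coding gene on the same strand was found for 6 and within 5000 bases for 23, where reads running past that gene's end cannot be told apart from the antisense RNA. AC109619.1, 3580 bases after Flrt1, and Tmem147os are the ones above 10 TPM.

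Of the 223, 205 reached 1 TPM in both libraries in the kallisto-format tables as well, and levels in the 2 formats correlated at Pearson 0.92 across genes. The largest disagreement was Snhg9, at 1.45 TPM in replicate 1 and 2.16 TPM in replicate 2 in the RSEM-format tables and listed at 0 in both kallisto-format tables. Rab26os measured 5.93 and 6.40 TPM against 1.60 and 1.58 TPM, Gm11973 measured 1.93 and 1.71 TPM against 0.59 and 0.31 TPM, and Gm45533 measured 2.46 and 6.21 TPM against 0 and 2.83 TPM in the kallisto-format tables. Gm3892 ran the other way, at 1.55 and 1.16 TPM against 4.71 and 4.79 TPM. For 9 of the 223 the 2 formats differed at least 2-fold on the log2(TPM + 0.1) scale.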

How the data were processed

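Per the file headers, the authors deposited RSEM-format tables with expected counts, TPM and the percent each transcript takes of its gene, and kallisto-format tables with estimated counts and TPM per transcript. The deposited text description names mm10 and the GENCODE M21 annotation. No source used here gives the aligner, versions, strand setting or read filters. Levels are deposited RSEM-format TPM with 0.1 added before log2. Expected counts were rounded, and scaled with TMM in edgeR 4.0.16 (R 4.3.3); DESeq2 1.42.0 size factors were an alternative. Everything else was computed in Python 3.11.15 with scipy 1.17.1. Positions, exons and transcript types come from GENCODE M21, whose gene identifiers matched the tables. The counting rule was tested on simulated data. The members, lists and pairs were chosen with earlier results of these data known. Named were the 20 most abundant RNAs, the 6 widest gaps in each direction, calls between the animals, listed genes, 3 genes on either side of the threshold, the 5 largest differences between formats, and the partners of all of these. Of these, 2 pairs are not reported here. Spike-ins and tRNA entries were not used here.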

Additional observations from a re-analysis of the deposited data

How the results depend on the processing

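The number of detected antisense RNAs moved to 372 at a threshold of 0.5 TPM and 105 at 2 TPM, and was 312 in the kallisto-format tables. In those tables the median level of the 223 was 2.55 TPM; leaving out each replicate in turn gave 1.97 to 2.34 TPM. The median gap of −2.53 was −2.45 in the kallisto-format tables, −2.18 with a pseudocount of 1, −2.61 with the coding gene of the nearest start and −2.63 without RNAs that overlap exons on their own strand. It was −2.55 with the coding gene named in the symbol and −2.57 without RNAs that share sequence, alternatives chosen after seeing the data. Leaving out each replicate gave −2.54 to −2.52, and overlapping pairs alone −2.52. The RNAs above their partner numbered 41 to 53 under the alternatives run. The correlation of levels was −0.11 in the kallisto-format tables and −0.048 with a pseudocount of 1. The correlation of ratios changed sign, to −0.13 over pairs with at least 50 reads and −0.052 in the kallisto-format tables; the cause was not tested. Calls between the animals stayed at 0 under other scalings, tables, intervals and without a minimum of reads. No paired analysis was possible because there is a single group. Depth limits the scarce RNAs, whose median was 58 and 61 reads.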
